A study of Homo sapiens with 9 samples.

Results

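A set of 244 genes was chosen by level: their RNA was low in 786-O cells, the line from a primary clear cell renal cell carcinoma, and higher again in its metastatic derivative. The mean CPM (counts scaled to the library total) of 786-O was at most 50% of that of HK2, the line of proximal tubule cells, and that of the metastatic cells was at least 2 times that of 786-O and at most 2 times that of HK2. Genes also had to average 50 counts or more across all 9 libraries, which left 12695 of the 28395 genes in the table. Of these 12695 genes, 1723 (13.6%) met the condition on 786-O, and the 244 members are 14.2% of the 1723 and 1.92% of the 12695. ASS1 and LOX met the rule and were left out of the set by name, as was PDGFRB.

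The levels of all 3 lines chose the members, so the differences between lines given for them are descriptions and not tests.

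HK2, an immortalised line, stood for the normal epithelium, with the label parental, 786-O for the primary tumor, also labelled parental, and the line labelled metastatic derivative of 786-O for its metastatic form. Each line gave 3 libraries of poly(A) RNA, no line was treated, and all were kept in Plasmax, a medium modelled on the nutrients of human plasma. A stage is thus 1 cell line, and line and stage cannot be told apart. By the study's methods the cells were plated on replicate dishes the day before extraction, so the spread between libraries is that between dishes of a line.

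Loss of a gene's RNA in a tumor line can follow from deletion, from silencing of its start site, often with methylation of CpG sites, or from lack of the factors that drive it, and only a gene still present can be switched on again. Kidney epithelium rests on a basement membrane of laminins, nidogens and collagens, and its cells are held by keratin filaments and adhesion proteins. Changes in matrix, adhesion and secreted signals are among those commonly studied when cells leave a primary tumor and settle in another organ.

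The name of the set did not hold for all of its members. In 71 of the 244 members (29.1%) no read was counted in any of the 6 cancer libraries, and these met the rule because 0 is at least 2 times 0. In 96 members (39.3%), which include the 71, no metastatic library had more than 3 counts, the floor used here, and 8 further members passed 3 counts in some but not all metastatic libraries. These 104 members (42.6%) are called not detectable in the metastatic cells. The remaining 140 members (57.4%) had over 3 counts in every metastatic library and make up 8.13% of the genes lost in 786-O. By contrast, 1474 of the 1723 lost genes (85.5%) did not reach 2 times the 786-O level in the metastatic cells, and 385 of these were at 50% of it or less.

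**Figure D1:**
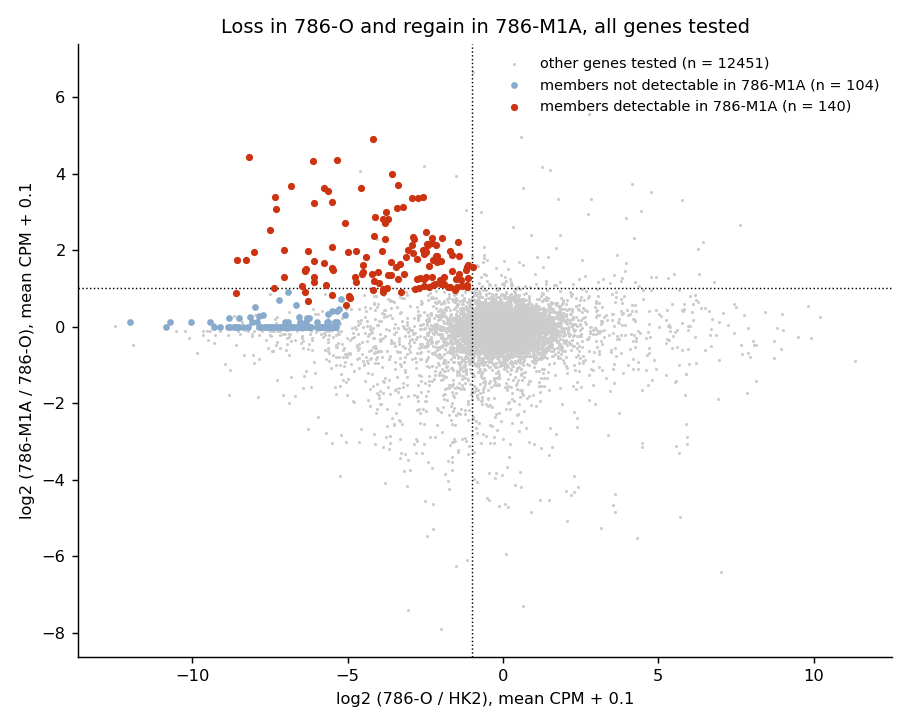
Each point is 1 of the 12695 genes tested, with the log2 ratio of 786-O to HK2 on the x axis and of the metastatic cells to 786-O on the y axis, both on mean CPM plus 0.1. Dotted lines mark a 2-fold difference, the 140 detectable members lie in the upper left corner, and the 104 others lie lower and to the left because 0.1 CPM outweighs their counts, which also moves some low members across the lines.

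The members not detectable in the metastatic cells passed the filter on mean counts through HK2 almost alone, so the filter itself set how low they could be there. Their mean level in HK2 lay between 3.96 and 444 CPM with a median of 10.2 CPM, against a median of 16.1 CPM for the detectable ones. NPNT, which encodes the basement membrane protein nephronectin, had 464, 445 and 421 CPM in HK2, 1, 0 and 0 counts in 786-O and 1, 0 and 1 counts in the metastatic cells. CDKN2A, the gene of the cell cycle inhibitor p16, had 173, 191 and 191 CPM in HK2, and its neighbour CDKN2B had 23.1, 23.1 and 22.1 CPM. Neither gene had a single count in the 6 libraries of the cancer lines. DKK1, which encodes a secreted Wnt antagonist, had 163, 176 and 166 CPM in HK2 and 1 count over all metastatic libraries. INSR (the insulin receptor), DSC3 (a desmosomal cadherin), TWIST1 (a factor of mesenchymal transition) and ERG (an ETS factor of endothelium) were also at 0 counts in all 6 cancer libraries. For these genes a lack of regain is what the counts show, whatever the rule states, and what follows is about the 140 detectable members.

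The tested genes that set the lowest limit to HK2 RNA in the other libraries were GREM1 for 786-O and CYP24A1 for the metastatic cells. GREM1 was at 663 CPM in HK2 and had 2 counts summed over the 786-O libraries. At the upper end of the exact 95% Poisson interval, 7.22 counts, HK2 RNA would make up 0.00879% of the 786-O reads. CYP24A1 was at 536 CPM in HK2 and had 0 counts over the metastatic libraries, and with an upper end of 3.69 counts the limit was 0.00593%. These limits cover counting error only. Both genes were picked because their limits were the lowest, so the 95% does not hold for them, and admixture of HK2 RNA was not tested. The lowest detectable member, EMILIN2, was at 0.288% of its HK2 level in the metastatic cells. The epithelial marker PAX8 had 172 CPM in HK2, 165 in 786-O and 176 in the metastatic cells, while PAX2 had 3.58, 25.0 and 10.3. Markers of the proximal tubule differed. LRP2 was at 0 in every library, and the means of CUBN, AQP1, SLC34A1 and HNF4A were at most 1.06 CPM in any line. GGT1 had 111, 80.8 and 85.5 CPM in HK2, 786-O and the metastatic cells, and ANPEP had 1.79, 112 and 19.2. PTPRC and CD3E of leukocytes were at 0. The 12 leukocyte genes summed to between 63.1 and 66.6 CPM in HK2, 33.6 and 35.6 in 786-O and 36.8 and 41.0 in the metastatic cells, and the 12 of endothelium to between 9.22 and 10.2, 1.14 and 1.69, and 1.51 and 2.01 CPM. As these were bulk libraries, more cells with a gene's RNA and more RNA per cell cannot be told apart.

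In the comparison of 786-O with HK2, all 140 detectable members were called lower (edgeR, adjusted p under 0.05), as were 42.6% of all genes tested. Their median log2 difference was -3.68, against -0.01 over all genes tested and -1.78 over the lost genes that were not regained. In that of the metastatic cells with 786-O, 138 of the 140 were called higher, against 27.9% of all genes, with a median of 1.90 against 0 over all genes. The exceptions were COL9A2 (381, 554 and 512 counts in HK2, 1, 3 and 4 in 786-O and 7, 6 and 6 in metastatic cells) and SDR42E1 (185, 220 and 259 counts in HK2, 4, 1 and 5 in 786-O and 4, 4 and 11 in metastatic cells), which were not called. Since the rule used both contrasts, these shares and medians say nothing further of the members. The 786-O level entered both limits, so the rule also shaped the difference in median between the members and the lost genes not regained. Of the 104 members not detectable in the metastatic cells, 3 were called higher than in 786-O all the same: CAVIN2 (0, 0 and 0 against 5, 3 and 2 counts), SELENBP1 (1, 0 and 1 against 2, 6 and 2) and PTPN20 (0, 1 and 0 against 1, 4 and 2).

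The extent of the regain varied widely. The level in the metastatic cells was between 2.00 and 47.1 times that in 786-O with a median of 3.62, and 52 members lay between 2 and 3 times while 21 were at 10 times or more. As a share of the HK2 level, it ranged from 0.288% to 179% with a median of 38.1%. In 17 members (12.1%) the level was above HK2, in 42 (30%) it lay between 50% and 100%, in 47 (33.6%) between 10% and 50%, and in 34 (24.3%) under 10%. Against HK2, 17 of the 140 were called higher, where 41.6% of all genes tested were, and 110 were called lower, where 43.3% were, while 13 were not called. The rule capped the level at 2 times that of HK2, so the direction of these calls was in part fixed by it. The shares of HK2 rest on plain library totals and the calls on totals scaled by TMM. Its factors were 1.02 to 1.03 in HK2 and 0.967 to 0.97 in the metastatic cells, so members near 100% may be placed differently by the 2 measures.

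**Figure D2:**
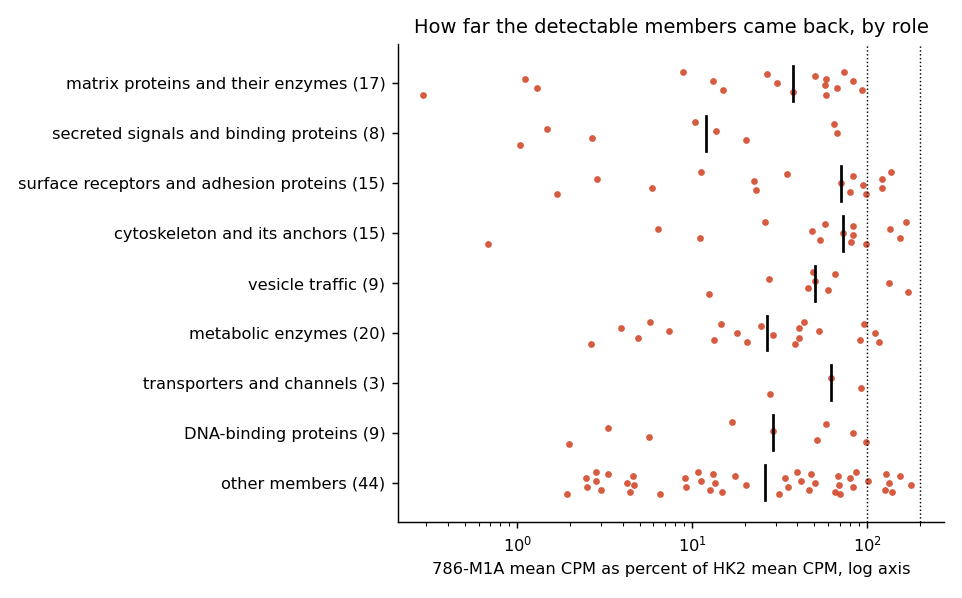
Each point is 1 of the 140 detectable members, placed by its mean CPM in the metastatic cells as a percent of that in HK2 on a log axis, with members grouped by role and the black bar at the group's median. Dotted lines mark 100% and the 200% set by the rule, and medians run from 12.03% for secreted signals to 72.8% for the cytoskeleton, with a wide spread in every group.

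The members farthest above 786-O in both other lines were ranked by the lesser of the 2 folds, with 786-O set to no less than 3 counts per library, and 14 of the first 15 are described here. PRTFDC1 (gene ID 56952, chr10:24848614-24952606), related to the purine salvage enzyme HPRT1, was the first with 51.9, 53.7 and 50.2 CPM in HK2, 0.0675, 0.0797 and 0.0954 in 786-O and 4.16, 3.40 and 3.87 in metastatic cells, a level 47.1 times that of 786-O. DENND2D (gene ID 79961, chr1:111185969-111204578), an exchange factor for Rab GTPases, had 17, 15.9 and 14.9 CPM in HK2, 0.248, 0.319 and 0.334 in 786-O and 7.75, 8.71 and 7.60 in metastatic cells. All metastatic libraries of both genes were above all 786-O libraries, yet PRTFDC1 came back to only 7.33% of HK2 and DENND2D to 50.3%. KCNJ5-AS1 (gene ID 219833, chr11:128899565-128906231), a long noncoding RNA on the strand opposite a potassium channel gene, had 1.92, 1.92 and 1.96 CPM in HK2, 0.0675, 0.106 and 0.119 in 786-O and 2.41, 2.44 and 2.48 in metastatic cells. The noncoding RNA was above HK2 in every metastatic library.

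KRT19 (gene ID 3880, chr17:41523617-41528308), a keratin of simple epithelia and a marker of kidney epithelium in this set, had 106, 113 and 106 CPM in HK2, 5.90, 5.85 and 6.01 in 786-O and 203, 172 and 166 in metastatic cells. Its log2 difference between the metastatic cells and 786-O was 4.98 ± 0.08 (SE), and its metastatic level was 166% of that of HK2. The keratins KRT8 and KRT18, which are no members, had 681, 302 and 372 CPM and 439, 165 and 180 CPM in HK2, 786-O and the metastatic cells. Of KRT8, KRT18 and KRT19, only KRT19 passed HK2 in the metastatic cells. EPCAM (gene ID 4072, chr2:47369311-47387020), the epithelial adhesion molecule, had 71.3, 83.9 and 73 CPM in HK2, 0.540, 0.611 and 0.572 in 786-O and 9.01, 8.84 and 7.86 in metastatic cells. It thus came back to 11.3% of HK2, with no overlap between any of the lines. Processed pseudogenes of KRT19 exist, and how reads shared with them were counted is not stated.

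IGFBP4 (gene ID 3487, chr17:40443450-40457725), a binding protein that holds insulin-like growth factors, had 9.93, 10.4 and 9.26 CPM in HK2, 0.135, 0.0797 and 0.143 in 786-O and 2.31, 1.76 and 1.95 in metastatic cells. ENG (gene ID 2022, chr9:127815016-127854658), which encodes the TGF-beta co-receptor endoglin, had 54.2, 48.4 and 53.2 CPM in HK2, 0.855, 0.744 and 0.978 in 786-O and 12.8, 11.9 and 10.4 in metastatic cells. Both came back to about the same share of HK2, 20.3% for IGFBP4 and 22.5% for ENG. CLEC4E (gene ID 26253, chr12:8533275-8540905), the lectin receptor Mincle of myeloid cells, had 16.9, 19.5 and 19.2 CPM in HK2, 0.338, 0.213 and 0.286 in 786-O and 4.10, 4.15 and 4.68 in metastatic cells; the myeloid marker CD14 was at 0.421, 0.182 and 0.175 CPM in these lines. LONRF3 (gene ID 79836, chrX:118974614-119018355), a RING finger protein, had 4.53, 4.63 and 4.63 CPM in HK2, 0.338, 0.425 and 0.119 in 786-O and 5.42, 6.75 and 6.37 in metastatic cells, above HK2 in every metastatic library.

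Of the remaining 5, ZNF22 (gene ID 7570, chr10:45000923-45005326), a zinc finger protein, had 34.8, 34 and 33.9 CPM in HK2, 1.40, 1.54 and 1.12 in 786-O and 17.2, 17.9 and 18.4 in metastatic cells. EPB41L3 (gene ID 23136, chr18:5392386-5630663), which ties membrane proteins to the actin skeleton, had 152, 157 and 161 CPM in HK2, 0.833, 0.824 and 0.954 in 786-O and 9.92, 9.74 and 10.5 in metastatic cells. The former came back to 52.1% of HK2 and the latter to 6.41%. HNMT (gene ID 3176, chr2:137964473-138016364), which inactivates histamine, had 8.04, 8.30 and 8.69 CPM in HK2, 0.0450, 0.186 and 0.215 in 786-O and 1.502, 1.41 and 1.61 in metastatic cells. QPCT (gene ID 25797, chr2:37344630-37373322), the glutaminyl cyclase of secreted peptides, had 600, 781 and 837 counts in HK2, 0, 1 and 2 in 786-O and 25, 47 and 39 in metastatic cells, a ratio of the metastatic cells to 786-O of 39.5 (95% exact interval 13.2 to 195) that covers counting error only. CTSF (gene ID 8722, chr11:66563464-66568606), the lysosomal protease cathepsin F, had 860, 1160 and 1197 counts in HK2, 3, 2 and 2 in 786-O and 30, 38 and 24 in metastatic cells, a ratio of 14 (95% exact interval 6.55 to 35.9). In both of these 786-O rested on so few counts that the size of the ratio is uncertain, and the intervals of the 2 genes overlap. Both genes were picked for a large ratio, so the 95% does not hold for their intervals.

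**Figure D3:**
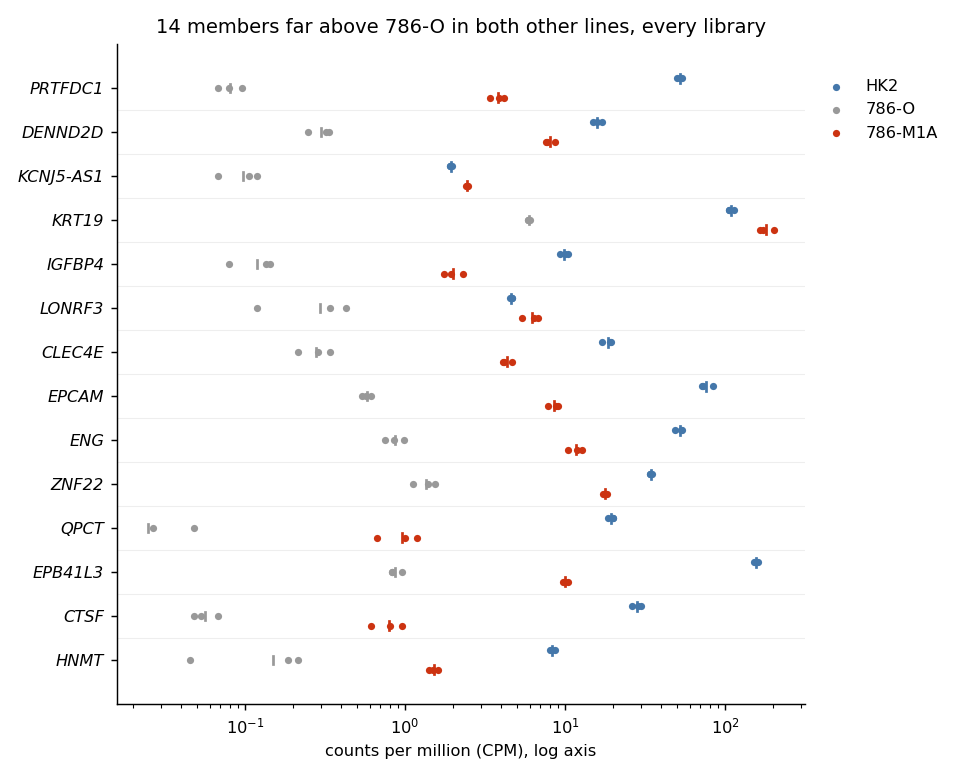
CPM of every library on a log axis for these 14 members, with a bar at each line's mean. The 786-O points lie left of the metastatic points in every row, and the order of HK2 and the metastatic cells differs between rows; the QPCT library with 0 counts in 786-O cannot be drawn on a log axis.

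The promoters of these members differed in base composition. The 250 bases upstream of the start are given for 4 of them, which are among the members with the largest folds and hold many or few CpG sites, with CG in capitals (CG reads the same on both strands). PRTFDC1 (chr10:24952607-24952856, minus strand, GRCh38.p14) has 34 CpG sites, a number that 6.61% of the 27305 promoters in the RefSeq table reach. IGFBP4 (chr17:40443200-40443449, plus strand) has 24, which 23.3% reach. KCNJ5-AS1 (chr11:128906030-128906279, minus strand) and CLEC4E (chr12:8540906-8541155, minus strand) have 2 each, and 23.6% of promoters have as few. A promoter rich in CpG and one nearly without them thus stand side by side among these members. As the 4 were picked for many or few sites, they do not show how common either kind is. The 27305 promoters also include those of genes not tested here, as 10191 of the tested genes have one in the table. For KCNJ5-AS1 the start in the table lies within the span of the gene given above. Methylation was not measured in these libraries.
PRTFDC1: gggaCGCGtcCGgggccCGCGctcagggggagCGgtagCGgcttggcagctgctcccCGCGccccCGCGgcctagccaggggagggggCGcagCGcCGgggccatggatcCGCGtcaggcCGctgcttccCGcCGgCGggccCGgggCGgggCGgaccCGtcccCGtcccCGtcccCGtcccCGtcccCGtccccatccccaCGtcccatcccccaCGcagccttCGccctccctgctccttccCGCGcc
IGFBP4: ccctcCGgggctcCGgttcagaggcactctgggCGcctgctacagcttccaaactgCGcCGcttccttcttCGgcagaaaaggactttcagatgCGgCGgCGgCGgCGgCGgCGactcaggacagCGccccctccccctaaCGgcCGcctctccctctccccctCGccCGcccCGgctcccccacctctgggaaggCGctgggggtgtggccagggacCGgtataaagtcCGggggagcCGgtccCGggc
KCNJ5-AS1: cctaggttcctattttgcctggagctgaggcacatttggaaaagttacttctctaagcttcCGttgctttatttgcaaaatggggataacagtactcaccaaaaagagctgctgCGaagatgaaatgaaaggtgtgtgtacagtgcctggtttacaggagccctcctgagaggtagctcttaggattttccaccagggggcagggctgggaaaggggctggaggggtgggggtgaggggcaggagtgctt
CLEC4E: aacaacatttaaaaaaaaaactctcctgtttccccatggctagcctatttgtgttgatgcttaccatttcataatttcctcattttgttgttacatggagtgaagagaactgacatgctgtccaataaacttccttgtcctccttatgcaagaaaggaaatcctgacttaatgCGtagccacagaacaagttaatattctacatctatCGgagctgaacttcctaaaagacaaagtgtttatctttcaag

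Matrix proteins and the enzymes that build the matrix made up 17 of the detectable members. FN1, fibronectin, had 7000.2, 5982 and 7181 CPM in HK2, 1661, 1745 and 1551 in 786-O and 3361, 4312 and 3911 in metastatic cells, and its log2 difference between the metastatic cells and 786-O was 1.28 ± 0.12 (SE). Its level in the metastatic cells was 57.4% of HK2, against 24.6% in 786-O, and the 3 lines did not overlap. Over all genes tested, libraries did not overlap for 85.3% between 786-O and HK2, 61.9% between the metastatic cells and 786-O, and 85.2% between the metastatic cells and HK2. PXDN, the peroxidase that crosslinks collagen IV, had 265, 242 and 265 CPM in HK2, 18.9, 18.9 and 18.8 in 786-O and 145, 155 and 152 in metastatic cells. All 3 of its metastatic libraries lay between those of 786-O and HK2. LTBP4, which stores latent TGF-beta, had 196, 183 and 203 CPM in HK2, 33.2, 33.5 and 31.5 in 786-O and 134, 132 and 125 in metastatic cells. TNC, tenascin C, had 185, 170.4 and 199.9 CPM in HK2, 25.3, 24.7 and 23 in 786-O and 101, 116 and 105 in metastatic cells. LAMA5, the laminin chain of mature epithelial basement membranes, had 269.6, 228 and 263 CPM in HK2, 39.7, 40.1 and 35.7 in 786-O and 75.4, 84.8 and 73.4 in metastatic cells. Every one of these was above 786-O in all metastatic libraries and below HK2. COL12A1, a fibril-associated collagen, had 19.9, 18 and 22.3 CPM in HK2, 2.16, 1.94 and 2.05 in 786-O and 16.7, 20.9 and 18.8 in metastatic cells, the fullest return of the group at 93.5% of HK2, with metastatic and HK2 libraries that overlapped.

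Several matrix genes came back far less. LAMA1, the laminin chain of early basement membranes, had 2207, 2552 and 3405 counts in HK2, 15, 17 and 9 in 786-O and 26, 41 and 24 in metastatic cells, a return to 1.10% of HK2. EMILIN2, an elastic fibre protein, had 1633, 2056 and 2473 counts in HK2, 3, 1 and 1 in 786-O and 5, 6 and 7 in metastatic cells, a ratio of the metastatic cells to 786-O of 3.85 (95% exact interval 1.38 to 13.3). The metastatic counts of EMILIN2 were all above those of 786-O but lay just over the floor. As the rule used its ratio, the 95% does not hold for the interval. The next matrix genes fared better. MATN2, which encodes matrilin 2, had 80.9, 76.8 and 75.9 CPM in HK2, 16.6, 15.2 and 15.7 in 786-O and 38.6, 39.4 and 39.9 in metastatic cells. NID2, nidogen 2, had 19.7, 18 and 18.6 CPM in HK2, 3.51, 3.99 and 5.15 in 786-O and 12.5, 14.8 and 14.5 in metastatic cells. Both were at 50% of HK2 or more, without overlap between lines. LOXL1, a lysyl oxidase of elastic fibres, had 25.9, 30.7 and 29.9 CPM in HK2, 5.15, 4.09 and 4.13 in 786-O and 12.6, 10.3 and 9.57 in metastatic cells. P4HA3, a collagen prolyl hydroxylase, had 4.53, 5.07 and 6.37 CPM in HK2, 0.158, 0.213 and 0.0954 in 786-O and 0.644, 0.932 and 0.819 in metastatic cells. In sum 8 of the 17 reached 50% of HK2, none passed 100%, and 4 stayed under 10%.

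**Figure D4:**
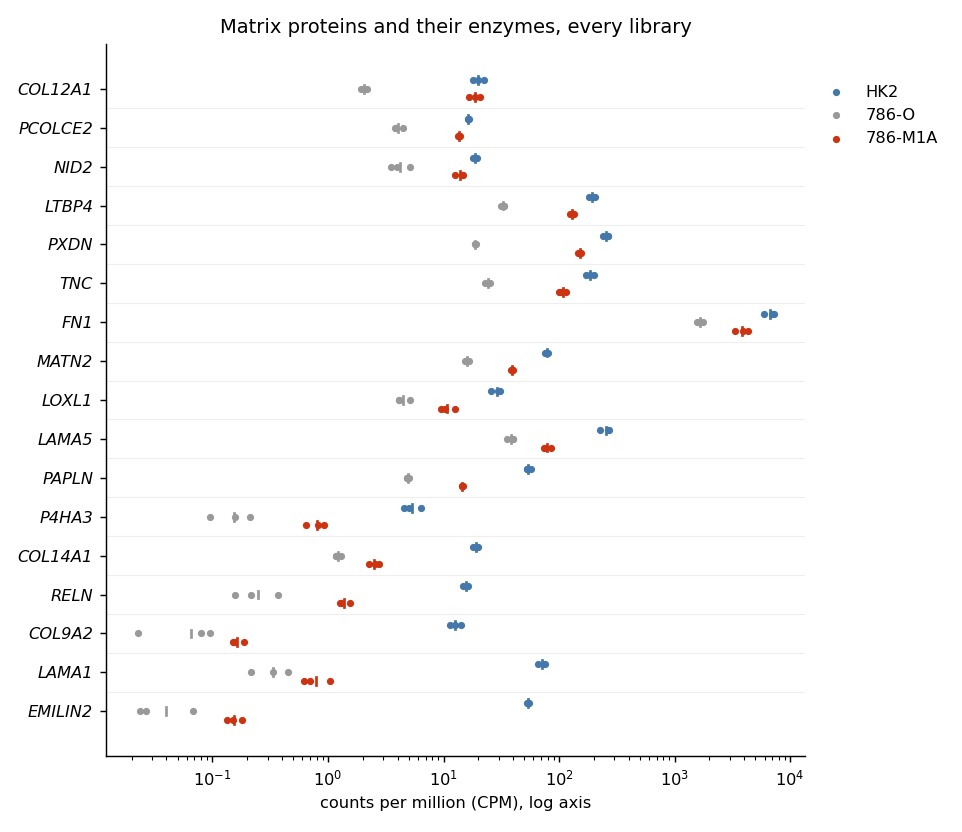
CPM of every library on a log axis for the 17 matrix proteins and enzymes, ordered by the metastatic level as a share of HK2, with a bar at each line's mean. The gap between the metastatic cells and HK2 is small for COL12A1 at the top and wide for LAMA1, COL9A2 and EMILIN2 at the bottom.

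The matrix list as a whole did not move with these members. It held 57 tested genes, of which 32 were lost in 786-O, where 13.6% of all genes tested were. Of the 57, 9 were members, all detectable, where 1.92% of all genes tested were members, and 23 were lost and not regained. Against 786-O, 20 of the 57 were called higher in the metastatic cells and 25 lower, where 27.9% and 28.0% of all genes were, with a median log2 difference of -0.17 against 0 over all genes. Of the 32 enzymes of crosslinking and remodelling, 14 were lost and 2 were members, with 13 called higher and 13 lower.

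The secreted signals and binding proteins, 8 members, had the lowest median of the role groups, at 12.03% of HK2. CXCL8, the neutrophil chemokine interleukin 8, had 238, 276 and 284 CPM in HK2, 0.923, 0.585 and 0.763 in 786-O and 2.41, 2.85 and 2.99 in metastatic cells. IL18, a cytokine released by the inflammasome, had 24.3, 27.1 and 23.1 CPM in HK2, 1.24, 1.22 and 1.38 in 786-O and 2.92, 2.59 and 2.18 in metastatic cells. IL18 was the detectable member nearest to the 2-fold limit. CHRDL1, a secreted antagonist of BMP signals, had 549, 526 and 526 CPM in HK2, 7.52, 7.89 and 7.77 in 786-O and 71, 74.7 and 74 in metastatic cells. STC2, the glycoprotein stanniocalcin 2, had 89.9, 92.2 and 90.8 CPM in HK2, 13.3, 12.3 and 11.8 in 786-O and 59.7, 64.6 and 60.7 in metastatic cells. Both lay between 786-O and HK2 in the metastatic cells. MDK, the growth factor midkine, had 278, 304 and 281 CPM in HK2, 1.06, 0.930 and 1.07 in 786-O and 4.61, 3.85 and 4.25 in metastatic cells. STC2 came back to 67.8% of HK2 and CHRDL1 to 13.7%, and 2 of the 8 reached 50%. Of 49 tested ligands, 20 were lost, where 13.6% of all genes were, and 2 were members. Of the 49, 19 were called higher and 18 lower in the metastatic cells against 786-O, where 27.9% and 28.0% of all genes were.

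Surface receptors and adhesion proteins, 15 members, came back to a median of 71.2%. F3, tissue factor, the starter of coagulation, had 86.1, 98.2 and 102 CPM in HK2, 36.3, 43.9 and 45.4 in 786-O and 111, 117 and 121 in metastatic cells. THBD, thrombomodulin, which restrains coagulation, had 5.63, 6.68 and 7.03 CPM in HK2, 1.94, 2.05 and 1.72 in 786-O and 7.78, 8.44 and 7.27 in metastatic cells. Both were above HK2 in the metastatic cells, at 122% and 121%. LAYN, a hyaluronan receptor, had 12.5, 13.7 and 13.7 CPM in HK2, 2.12, 1.22 and 1.67 in 786-O and 19, 16.9 and 18.6 in metastatic cells. P2RY2, a receptor for extracellular ATP and UTP, had 14.9, 13.2 and 13.7 CPM in HK2, 1.37, 1.14 and 1.12 in 786-O and 11.9, 11.7 and 10.01 in metastatic cells. LAYN thus passed HK2 in every library, and P2RY2 stayed below it. MELTF, the iron-binding surface protein melanotransferrin, had 65.8, 68.3 and 65.5 CPM in HK2, 13.2, 13.3 and 14.5 in 786-O and 65.9, 62.1 and 60.6 in metastatic cells, overlapping between the metastatic cells and HK2. TLR2, which senses bacterial lipopeptides, had 18.9, 18.5 and 18.7 CPM in HK2, 0.248, 0.372 and 0.358 in 786-O and 1.10, 0.982 and 1.20 in metastatic cells. SCARF1, a scavenger receptor, had 49.7, 51.7 and 50.7 CPM in HK2, 0.203, 0.425 and 0.238 in 786-O and 0.858, 0.806 and 0.896 in metastatic cells. These 2 stayed under 10% of HK2, as did TFR2, the second transferrin receptor, at 2.85%.

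Of the 15 members of the cytoskeleton and its anchors, 10 reached 50% of HK2. NEDD9, a scaffold of focal adhesions, had 43.3, 44.5 and 44.4 CPM in HK2, 14.8, 16.5 and 18.4 in 786-O and 61.2, 57.6 and 60.1 in metastatic cells, above HK2 in all metastatic libraries. TGFB1I1, the focal adhesion protein Hic-5, had 117, 116 and 121 CPM in HK2, 8.46, 7.74 and 8.06 in 786-O and 59.7, 56.5 and 56 in metastatic cells. PLEK2, a pleckstrin of the actin cortex, had 62.1, 64.2 and 63.1 CPM in HK2, 4.93, 4.47 and 4.91 in 786-O and 34.8, 33.3 and 34.3 in metastatic cells. These 2 were lower in the metastatic cells than in HK2. DMD, dystrophin, had 16.6, 17.4 and 19.4 CPM in HK2, 6.23, 6.22 and 6.13 in 786-O and 13.4, 15.3 and 15.7 in metastatic cells. SSPN, sarcospan of the same membrane complex, had 1.75, 2.38 and 1.59 CPM in HK2, 1.04, 0.957 and 0.811 in 786-O and 2.49, 3.25 and 3.05 in metastatic cells. Both of this complex were higher in the metastatic cells than in 786-O without overlap, but only SSPN passed its HK2 mean. The neighbouring LIM genes CRIP2 and CRIP1, 6716 bp apart, differed in kind. CRIP2 had 73.6, 75.8 and 70.9 CPM in HK2, 13.9, 14.2 and 13.6 in 786-O and 46.8, 42.2 and 37.7 in metastatic cells. CRIP1 had 1523, 2021 and 2278 counts in HK2, 0, 3 and 1 in 786-O and 16, 12 and 12 in metastatic cells. It returned to 0.681% of HK2, with a ratio of the metastatic cells to 786-O of 10.7 (95% exact interval 3.86 to 41.1). The rule used this ratio, so the 95% does not hold for it.

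Vesicle traffic contributed 9 members, none of them under 10% of HK2. EHD2, an ATPase of caveolae, had 193, 179 and 196 CPM in HK2, 54, 49.6 and 48.5 in 786-O and 129.7, 123 and 118 in metastatic cells. SYT13, a synaptotagmin, had 44.8, 43 and 45.2 CPM in HK2, 15.8, 15.8 and 17.5 in 786-O and 74.3, 76.2 and 77.7 in metastatic cells, a level of 172% of HK2. STXBP6, a regulator of SNARE assembly, had 2.71, 2.79 and 2.34 CPM in HK2, 1.01, 1.09 and 1.29 in 786-O and 3.75, 3.25 and 3.53 in metastatic cells. Both SYT13 and STXBP6 were above HK2 in every metastatic library. SNAP25, a SNARE of exocytosis, had 8.67, 8.73 and 8.38 CPM in HK2, 1.04, 1.25 and 1.22 in 786-O and 4.37, 4.31 and 3.97 in metastatic cells. SYTL2, an effector of Rab27, had 18.3, 18.3 and 18.5 CPM in HK2, 2.63, 2.15 and 2.74 in 786-O and 5.15, 4.78 and 5.22 in metastatic cells, and its fold was close to the limit of the rule. Of members outside the named roles, ANXA3, an annexin, had 139.7, 145 and 145 CPM in HK2, 25.6, 25.3 and 26.1 in 786-O and 96.9, 102 and 99.1 in metastatic cells. HTATIP2 had 90.8, 95.8 and 88.6 CPM in HK2, 15.3, 16.1 and 17 in 786-O and 66.5, 62.9 and 63.7 in metastatic cells. Both came back to about the same share of HK2, 69.2% and 70.1%.

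Among the 20 metabolic enzymes the median was 26.8% of HK2. PTGES, which makes prostaglandin E2, had 80.8, 83.4 and 82.8 CPM in HK2, 8.12, 9.44 and 10.8 in 786-O and 34, 32.8 and 34.5 in metastatic cells. LIPG, the lipase of high-density lipoprotein phospholipids, had 41.1, 41.2 and 39.6 CPM in HK2, 4.48, 4.33 and 4.48 in 786-O and 12.2, 10.5 and 12.4 in metastatic cells. Neither reached 50% of HK2. AK5, an adenylate kinase, had 16, 17 and 15.7 CPM in HK2, 7.25, 7.44 and 7.63 in 786-O and 18.8, 18.1 and 16.8 in metastatic cells. INPP1, an inositol polyphosphate phosphatase, had 31.1, 31.1 and 29.7 CPM in HK2, 12.2, 11.7 and 11.9 in 786-O and 27.9, 27.9 and 28.2 in metastatic cells. Both came close to the HK2 level, AK5 at 110.5% and INPP1 at 91.4%. ALDH1L2, the mitochondrial formyltetrahydrofolate dehydrogenase, had 6.36, 5.20 and 6.53 CPM in HK2, 0.203, 0.319 and 0.238 in 786-O and 2.31, 2.64 and 2.43 in metastatic cells. AGMAT, agmatinase, had 14.2, 15.4 and 15.4 CPM in HK2, 0.113, 0.106 and 0.0238 in 786-O and 0.295, 0.478 and 0.410 in metastatic cells. ACOT1 and ACOT2, acyl-CoA thioesterases 23824 bp apart on chromosome 14, are both members. ACOT1 had 7.65, 8.42 and 7.94 CPM in HK2, 1.80, 1.22 and 1.36 in 786-O and 3.19, 2.79 and 3.30 in metastatic cells. ACOT2 had 12.9, 12.7 and 12.2 CPM in HK2, 2.77, 2.07 and 2.79 in 786-O and 5.69, 5.44 and 5.45 in metastatic cells. These 2 are near-identical copies, so how their reads were divided is uncertain.

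Of the 3 transporters and channels, SLC2A9, the urate transporter, had 7.15, 5.56 and 5.62 CPM in HK2, 0.203, 0.319 and 0.238 in 786-O and 1.48, 1.94 and 1.72 in metastatic cells, and was the lowest at 28% of HK2. KCNN4, the calcium-activated potassium channel KCa3.1, had 7.22, 6.91 and 6.59 CPM in HK2, 1.82, 2.31 and 1.96 in 786-O and 4.29, 4.18 and 4.40 in metastatic cells. SLC37A2, a sugar-phosphate exchanger, had 4.24, 4.05 and 4.48 CPM in HK2, 1.71, 1.73 and 2.17 in 786-O and 4.26, 3.58 and 3.99 in metastatic cells. Of the 9 DNA-binding proteins, HMGA1, an architectural chromatin protein with processed pseudogenes, had 658, 677 and 724 CPM in HK2, 11.3, 9.86 and 8.99 in 786-O and 23.8, 22.4 and 21.8 in metastatic cells, only 3.30% of HK2 in the metastatic cells. TFCP2, a transcription factor of the Grainyhead family, had 39.4, 40.2 and 39.5 CPM in HK2, 0.675, 0.744 and 0.501 in 786-O and 2.20, 2.44 and 2.12 in metastatic cells. ZNF300 had 7.61, 7.20 and 6.39 CPM in HK2, 1.26, 1.09 and 1.19 in 786-O and 6.60, 6.55 and 7.78 in metastatic cells. MAFF, a small MAF protein, had 17.6, 18.7 and 18.7 CPM in HK2, 4.37, 5.13 and 5.06 in 786-O and 10.6, 11.4 and 10.1 in metastatic cells. ZNF300 was thus back near HK2, while HMGA1 and TFCP2 stayed far below it.

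The 17 members above their HK2 mean in the metastatic cells included several not named so far. CARD9, an adaptor of innate immune receptors, had 4.44, 5.02 and 4.43 CPM in HK2, 0.653, 0.744 and 0.715 in 786-O and 9.17, 8.03 and 7.63 in metastatic cells, the highest share of HK2 at 179%. LRRC34, a leucine-rich repeat protein, had 5.30, 5.81 and 6.22 CPM in HK2, 0.765, 0.824 and 0.739 in 786-O and 8.80, 8.84 and 9.04 in metastatic cells. CIART, a repressor in the circadian clock, had 3.41, 3.41 and 3.37 CPM in HK2, 0.428, 1.06 and 0.906 in 786-O and 4.05, 4.53 and 4.48 in metastatic cells. These 3 were above HK2 in every metastatic library. TMEM154, a membrane protein, had 12.3, 11.4 and 13.8 CPM in HK2, 5.31, 6.19 and 5.65 in 786-O and 17.8, 17.6 and 17.1 in metastatic cells. ADPRH, which removes ADP-ribose from arginine, had 4.73, 5.10 and 3.59 CPM in HK2, 1.55, 1.33 and 1.19 in 786-O and 5.34, 5.62 and 4.68 in metastatic cells. CDIP1, a gene induced by p53, had 37.6, 38.7 and 39 CPM in HK2, 7.79, 7.76 and 7.75 in 786-O and 39.9, 39.7 and 37.5 in metastatic cells. Of these 17, the metastatic and HK2 libraries overlapped for CDIP1, AK5 and ADPRH, and not for the others.

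**Figure D5:**
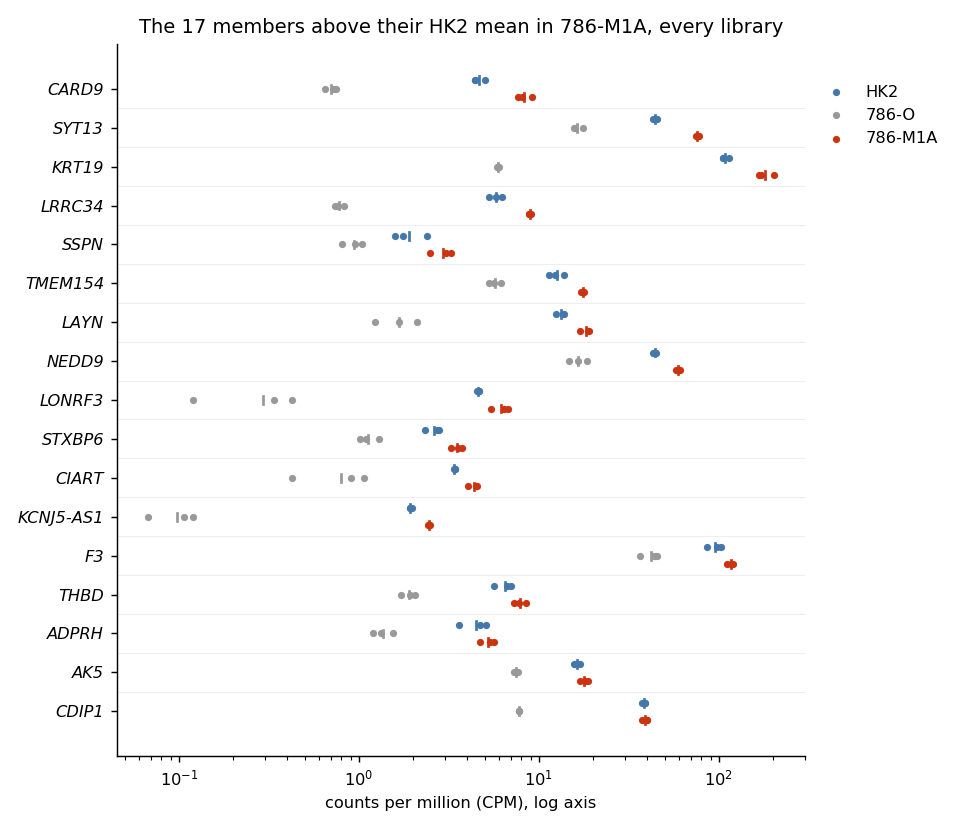
CPM of every library on a log axis for the 17 members whose mean in the metastatic cells exceeds that in HK2, from CARD9 at 179% down to CDIP1, with a bar at each line's mean. In every row the grey 786-O points lie left of both other lines.

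The genes nearest to each limit of the rule were as follows. For the ratio of the metastatic cells to 786-O, IL18 (2.00), CRADD (2.01) and SYTL2 (2.01) were just inside and GSN (1.99) and FERMT1 (1.95) just outside. For that of HK2 to 786-O, SSPN (2.04), AK5 (2.18) and TMEM154 (2.19) were inside and TGM2 (1.99), MME (1.79) and GJA1 (1.75) outside. For that of the metastatic cells to HK2, CARD9 (1.79), SYT13 (1.72) and KRT19 (1.66) were inside, and SP5 (3.32), CRACR2B (3.66) and PTGDS (5.87) outside, with a wide gap at this limit. For the mean count, ATF7IP2 (50.7), FXYD6 (51.3) and FAM24B (52.7) were inside and ARL10 (49.9), AFP (49.3) and CELF2 (47.7) outside.

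The other gene lists are given by their counts. Of all genes tested, 13.6% were lost in 786-O, and 27.9% and 28.0% were called higher and lower in the metastatic cells against 786-O. The share of all genes tested that were members was 1.92%. Lists this short would hold about 1 member or none at that share, so a count of none is near the background. Of 36 tested targets of hypoxia-inducible factors, 1 was lost in 786-O and none was a member, and 25 were called higher and 5 lower in the metastatic cells against 786-O. Of 45 interferon-stimulated genes, 5 were lost and none was a member, with 8 called higher and 29 lower. F3 was the only member among 22 targets of YAP and TEAD. None was found among 19 genes of antigen presentation, 22 NRF2 targets or 30 cell cycle genes. The 15 cancer-testis genes, 15 imprinted genes and 14 genes of arginine metabolism held none either. The arginine list was without ASS1, which met the rule and was left out by name. It was also without AGMAT, the gene of agmatinase, which is a detectable member. Of 55 adhesion and junction genes, 24 were lost, and of these DSC3 and EPCAM were members, only EPCAM detectably. INSR, not detectable in the metastatic cells, was the 1 member among 51 receptors of growth factors and cytokines. FN1 and TWIST1 were members among 21 genes of mesenchymal transition, and SLC2A9 was the 1 member among 20 genes of proximal tubule function. No marker of fibroblasts, distal nephron, podocytes or leukocytes was a member.

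The detectable members lay on 21 chromosomes. Chromosome 11 held 17 of its 687 tested genes (2.47%), chromosome 14 the same share and chromosome 20 2.39%, against 1.10% of all genes tested, and chromosomes 13 and 21 held none. On the X chromosome there were 5, 3.57% of the members against 3.47% of the tested genes. In 18 pairs, of 27 members, the genes were within 1 Mb of each other. MAPK8IP2, a scaffold of JNK signals, and ARSA, the lysosomal arylsulfatase A, were 8776 bp apart on chromosome 22. MAPK8IP2 had 9.70, 10.1 and 10.5 CPM in HK2, 0.540, 0.532 and 0.572 in 786-O and 1.48, 1.38 and 1.10 in metastatic cells. ARSA had 23.4, 22.3 and 21.3 CPM in HK2, 9.81, 9.89 and 10.5 in 786-O and 23.5, 19.7 and 21.5 in metastatic cells. Only ARSA came back to the HK2 range. FCHO1, an initiator of clathrin coats, and JAK3, a kinase of cytokine receptors, were 36221 bp apart on chromosome 19. FCHO1 had 8.87, 8.35 and 9.28 CPM in HK2, 0.630, 0.638 and 0.358 in 786-O and 4.43, 3.83 and 3.97 in metastatic cells. JAK3 had 4.87, 4.66 and 5.05 CPM in HK2, 0.0675, 0.106 and 0.167 in 786-O and 0.456, 0.353 and 0.538 in metastatic cells. On chromosome 11, CRYAB, a small heat shock protein, had 31.7, 31.8 and 33 CPM in HK2, 0.315, 0.213 and 0.334 in 786-O and 0.483, 0.604 and 0.768 in metastatic cells and lies in a stretch with IL18 and LAYN. The shares of HK2 reached in the metastatic cells were 13.1% and 96.6% in the pair on chromosome 22, 46.1% and 9.24% in that on chromosome 19, and 1.92%, 10.3% and 137% for CRYAB, IL18 and LAYN, so neighbours could differ widely.

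For 29 of the 140 members an exon lies opposite an exon of another counted gene, among them TNC, LAMA5, NID2, LOXL1, MAFF, CRYAB, MDK and ACSL5. Whether strand was used in counting is not stated, so part of their counts may belong to the partner gene. The opposite pattern, at least 2 times HK2 in 786-O and back down by at least 2-fold in the metastatic cells but at least 50% of HK2, was found for 76 of 1106 genes (6.87%), of which 60 (5.42%) were over 3 counts in every HK2 library.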

How the data were processed

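RNA was sequenced from 3 cell lines with 3 libraries each, of TruSeq Stranded mRNA on a NextSeq. The authors deposited whole-number counts per gene, made with featureCounts of Rsubread on hg38 and neither normalized nor filtered. Whether strand was used in counting and the annotation are not given in the sources used here. Library totals ran from 30212291 to 45362428 counts, so the floor of 3 counts is 0.0661 to 0.0993 CPM, and TMM factors from 0.967 to 1.03. Intervals cover counting error only.

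The rule was applied to CPM on plain totals, as the report states it. Members, gene lists and roles were chosen with earlier results of these data known, and detectable members were defined after the counts were seen. The rule used the levels of all 3 lines, so the calls given for members are descriptions, and no p-value is printed for them. These calls came from the same fit as the background shares. Background shares came from edgeR 4.0.16 (quasi-likelihood, TMM, all 9 libraries, genes averaging 50 counts or more, Benjamini-Hochberg over 12695 genes, threshold 0.05) in R 4.3.3, tested on simulated data. Symbols, positions and promoters came from RefSeq GRCh38.p14, which named 27741 of 28395 genes. Promoters were found for 110 of the 140 detectable members (78.6%) and for 80.3% of all genes tested. A comparison of CpG content over the set was not made. Overlaps came from GENCODE.

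Any member could be named. Values of every library were to be given for the 15 with the largest lesser fold over 786-O, the 15 with the highest CPM in the metastatic cells, those in the lists, and those near or related to another; the last are given in part, and some single results within this rule are not reported here. Alternatives were DESeq2 1.42.0, limma 3.58.1, other scalings and filters, other folds of the rule, a replicate block and leaving out libraries. Python 3.11.15 was used otherwise.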

Additional observations from a re-analysis of the deposited data

How the results depend on the processing

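The number of genes meeting the rule moved with its limits: 409 with a mean of at least 10 counts, 117 with at least 200, 104 with at least 10 counts in every library and 381 with 1.5-fold limits, against 244. Detectable genes numbered 81 with a mean of at least 200 counts, 83 with 3-fold and 274 with 1.5-fold limits, against 140. Leaving out a library gave 209 (an HK2 library) to 270 genes (a 786-O library), 134 to 144 of them detectable, and TMM totals or DESeq2 size factors gave 248, sharing 243. With at least 10 counts in every library, members called fell to 99 in 786-O against HK2 and to 86 in the metastatic cells against HK2, since fewer were tested. Log2 differences of named members kept their direction in all alternatives, with 6978 on the same side of the threshold, 24 weaker and 15 stronger. Leaving out a library, 136 to 139 detectable members were called in the metastatic cells against 786-O, with PDE7B, GIPC3 or PGCKA1 lost or COL9A2 gained, and 125 to 127 against HK2, with CDIP1, ADPRH, P2RY2, DMD, TP53INP2 or ZC3HAV1L lost in some. Replicate numbers did not pair the libraries: correlations between same-numbered libraries of the metastatic cells and 786-O were 0.215, 0.074 and 0.11, and others were between -0.167 and 0.0376. With the replicate block, 244, 141 and 231 members were called in 786-O against HK2, the metastatic cells against 786-O and the metastatic cells against HK2, against 244, 141 and 231 without it.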
